A study of Homo sapiens with 42 samples.

Results

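The genes described here are the subunits of the cleavage and polyadenylation specificity factor (CPSF), its partner symplekin and the esterase that activates the CPSF inhibitor JTE-607. They are 8 of the 58243 genes in the count tables: CPSF1, CPSF2, CPSF3, CPSF4, WDR33, FIP1L1, SYMPK and CES1. Each was found by its Ensembl identifier, which a reference table of gene names pairs with the symbol. That rule uses names alone, but the list was drawn up with earlier results of these data known. K562, an established cell line from a chronic myeloid leukaemia that depends on the BCR-ABL1 kinase, was left untreated (CTRL) or given an agent, and the study asked how transcripts end and are spliced under treatment. Imatinib (IM, 1 µM) inhibits that kinase, JTE-607 (JTE, 5 µM) inhibits the nuclease CPSF73, and 110 mM KCl added to the medium is a hyperosmotic shock. Poly(A) mRNA of whole cells was sequenced from CTRL, IM at 1, 6 and 18 h, JTE at 1, 6 and 18 h and KCl at 1 and 3 h. Nuclear RNA depleted of ribosomal RNA was sequenced from CTRL, IM at 1 and 18 h, JTE at 1 h and KCl at 1 h. Each of the 14 groups had 3 biological replicates, 42 libraries in all, and all come from the same unmodified line.

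Most human messenger RNAs are cut at their 3′ end and given a poly(A) tail by a complex built around CPSF. CPSF1 is its scaffold, CPSF4 and WDR33 bind the AAUAAA signal in the transcript, and FIP1L1 binds nearby U-rich sequence and recruits the poly(A) polymerase. CPSF3 encodes CPSF73, the endonuclease that makes the cut, CPSF2 is its inactive relative of the same fold, and symplekin holds the pair together. JTE-607 enters cells as an ester, which carboxylesterase 1, the product of CES1 and best known from liver and macrophages, hydrolyses to the acid that occupies the active site of CPSF73.

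Hexamers at the ends of the members that match the poly(A) signal are shown first, since that signal is the sequence that the complex itself reads. The annotated 3′ end of each gene on hg38 was searched over its last 60 bases for AATAAA and ATTAAA on the strand of the gene. The ends of CPSF1, WDR33 and CES1 are not shown. The matches, in capitals, stand in 30-base windows within the final exons, which hold the 3′ UTRs, at chr2:9473062-9473091 (+) for CPSF3, chr14:92172113-92172142 (+) for CPSF2, chr19:45815440-45815469 (-) for SYMPK and chr7:99457342-99457371 (+) for CPSF4.
CPSF3: tttgttacctaaAATAAAatgcattcgttt
CPSF2: tagcaattgtgaAATAAAcagattctgaag
SYMPK: AATAAAagatgtgaacttgggcaagttact
CPSF4: ttttatgaaatggATTAAAgcttgtttttt
AATAAA ended 22 bases before the annotated end of CPSF3, 15 before that of CPSF2 and 54 before that of SYMPK, and CPSF4 held ATTAAA 11 bases before its end. Whether cleavage uses these hexamers was not tested. Neither hexamer is in the last 60 bases of FIP1L1 (chromosome 4, 53377643 to 53460861). Of 12692 protein-coding genes, those tested in mRNA together with the members, 62.0% hold AATAAA in that window and 76.1% hold one of the pair.

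Library totals lay between 16175394 and 25103205 read pairs, apart from 62953314 and 42474454 in replicates 2 and 3 of mRNA KCl 1h. All 11 erythroid markers expected in K562, among them GATA1 and the embryonic and fetal globins, had a mean of at least 1 CPM (read pairs scaled to a common library size) in both fractions. Of the nuclear-retained RNAs, MALAT1 stood at 2662 CPM in mRNA CTRL and 13201 CPM in nuclear CTRL. The spread between replicates exceeded sampling noise in all groups. These are bulk samples, so fewer expressing cells and less RNA per cell cannot be told apart, and each CPM is a share of its library rather than an amount per cell.

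All CPSF subunits and symplekin were expressed, and CPSF3 was the most abundant of them per kilobase of exon in mRNA CTRL. On that scale CPSF3 stood at 40.3 ± 3.75 CPM per kb (SD, n = 3), CPSF1 at 23.7 ± 0.871, CPSF4 at 13.0 ± 0.619, SYMPK at 10.6 ± 0.322, CPSF2 at 10.3 ± 0.801, WDR33 at 8.69 ± 0.353 and FIP1L1 at 7.12 ± 0.436. The CTRL libraries of neighbours in this order did not overlap, except those of SYMPK and CPSF2. CPSF3 held the first place and CPSF1 the second in all 9 mRNA groups, while CPSF4 moved between places 3 and 7. In nuclear CTRL the order was CPSF1 (37.6 ± 2.68 CPM per kb), CPSF3 (32.2 ± 5.18), CPSF4 (19.7 ± 1.80), SYMPK (17.3 ± 1.52), WDR33 (10.2 ± 0.356), CPSF2 (7.88 ± 0.967) and FIP1L1 (5.87 ± 0.714). There the libraries overlapped between CPSF1 and CPSF3 and between CPSF4 and SYMPK. Exon lengths come from the count tables and take all annotated exons of a gene together, so a long rarely used exon lowers its level per kilobase. So do exon bases shared with another gene, where read pairs were not counted. Of the 14580 exon bases of WDR33, 3735 are shared with SFT2D3, and of the 5636 of FIP1L1, 1560 are shared with LNX1. The levels of these members per kilobase, and their places in the order, may therefore be too low.

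**Figure D1:**
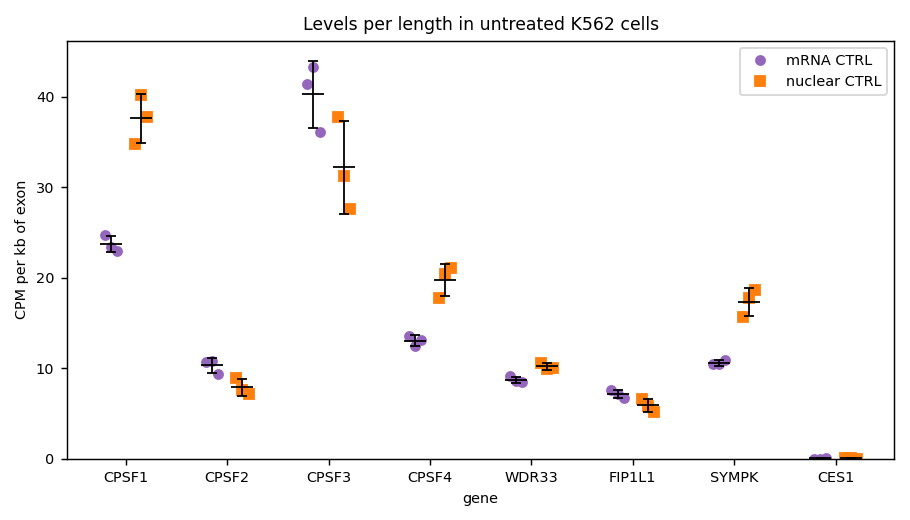
Level per kilobase of exon (vertical axis, CPM per kb) of the 8 genes in the 3 mRNA CTRL and the 3 nuclear CTRL libraries; points are libraries and bars the mean ± SD. CPSF3 stands highest in mRNA at 40.3 ± 3.75 CPM per kb, and CES1 lies at the bottom in both fractions.

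The nuclear-to-mRNA ratio lay above the median of all genes for some members and below it for others. As a log2 ratio of mean CTRL CPM, SYMPK (0.72), CPSF1 (0.66) and CPSF4 (0.60) lay above the median of the 16629 genes tested in both fractions (0.37), whereas WDR33 (0.23), FIP1L1 (-0.28), CPSF3 (-0.32) and CPSF2 (-0.39) lay below it. The values of SYMPK, CPSF1 and CPSF4 fell at percentiles 69.0, 66.5 and 62.8 of those genes. Those of WDR33, FIP1L1, CPSF3 and CPSF2 fell at percentiles 42.3, 17.9, 16.2 and 13.8. The fractions were prepared and normalized separately and differ in poly(A) selection, so the ratio is a description with no test.

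CPSF3, the target of JTE-607, passed in none of the 25 comparisons by the quasi-likelihood test of edgeR, adjusted after Benjamini and Hochberg, in which a gene passes at an adjusted p under 0.05 and is called if its log2 fold change is also beyond 0.6 (fits without a replicate block, unless stated). At an unadjusted p under 0.05 it stood in 3 of them, and DESeq2, also without a block, passed it in none. In edgeR with the replicate number as a block it passed in some comparisons, given below, among them nuclear JTE 1h (adjusted p 0.0218). Its mRNA stood at 156, 163 and 136 CPM in the 3 CTRL libraries, at 175, 169 and 150.0 at JTE 1h, at 203, 175 and 153 at JTE 6h and at 151, 149 and 149 at JTE 18h. JTE 6h held the highest of all mRNA values and also one below the highest CTRL library, so those groups overlap. The log2 fold change against CTRL was 0.12 (95% interval -0.08 to 0.31) at 1 h, 0.22 (0.03 to 0.42) at 6 h and -0.02 (-0.22 to 0.17) at 18 h, with adjusted p of 1, 0.112 and 0.926. At 6 h the call depended on 1 library: without JTE 6h replicate 3 the adjusted p was 0.0309. With IM the CPSF3 mRNA values ran from 144 to 167 CPM over its 9 libraries, and the log2 fold changes from CTRL were 0.02, 0.04 and 0.10 at 1, 6 and 18 h. With KCl they were 164, 167 and 143 CPM at 1 h and 190.4, 179 and 172 at 3 h. All KCl 3h libraries lay above all CTRL libraries, yet the difference missed the threshold (log2 fold change 0.25, SE 0.10, adjusted p 0.0819). The confidence intervals of these 8 mRNA comparisons all stayed within -0.22 and 0.45.

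In nuclear RNA, CPSF3 stood at 143, 118 and 104 CPM in CTRL, 174, 129.9 and 132 at IM 1h, 145, 115 and 99.9 at IM 18h, 151, 136 and 138 at JTE 1h and 159, 122 and 106 at KCl 1h. Replicate 1 was the highest in every nuclear group, and all 4 treated groups overlapped CTRL. The replicate numbers pair the nuclear libraries, whose deviations from their group means went together. With the replicate number as a block, CPSF3 passed at JTE 1h (0.24, adjusted p 0.0218, against 0.22, adjusted p 0.472 without it). In mRNA the same block brought CPSF3 past the threshold between JTE 6h and JTE 18h (-0.24, adjusted p 0.0185, against -0.25, adjusted p 0.0666), as did leaving out JTE 6h replicate 3 (adjusted p 0.0193). With the block CPSF3 also passed against mRNA CTRL at JTE 6h (0.22, adjusted p 0.0338) and KCl 3h (0.25, adjusted p 0.0183). In those 2 comparisons only some same-numbered pairs went together.

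**Figure D2:**
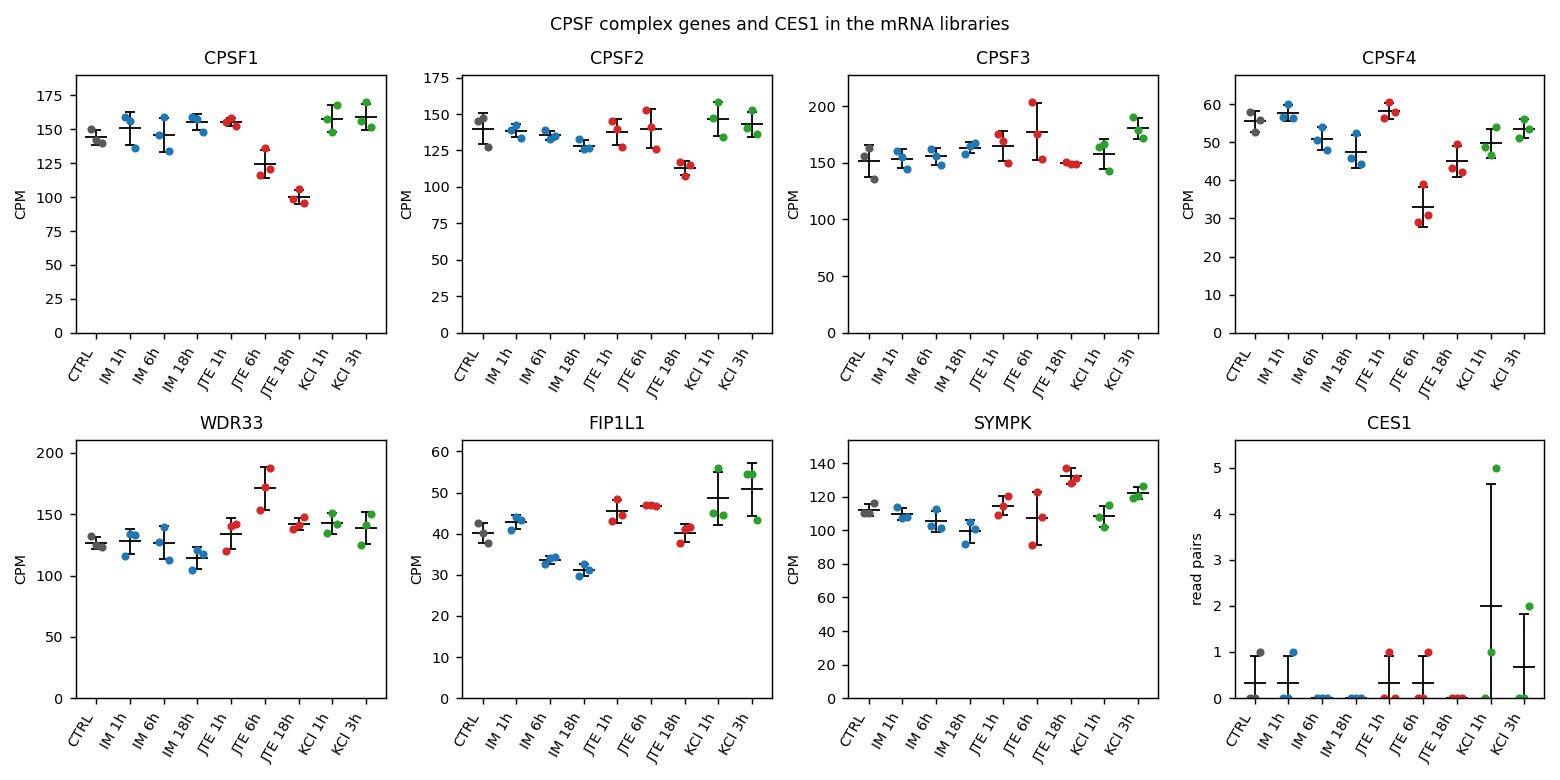
Levels in the 27 mRNA libraries by group, in CPM (in read pairs for CES1), with points for libraries and bars for the mean ± SD of 3. CPSF4 drops to 33.0 ± 5.24 CPM at JTE 6h from 55.5 ± 2.63 CPM in CTRL, while CPSF3 overlaps CTRL in all groups but KCl 3h.

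Under JTE, 4 of the 7 tested members passed against CTRL in mRNA at one time or another: CPSF4 and WDR33 at 6 h, and CPSF1 and CPSF2 at 18 h. At 1 h none of the 7 passed by edgeR or DESeq2, and 0 had an unadjusted p under 0.05. Of all 18095 mRNAs tested, 0.984% passed at 1 h, 18.1% at 6 h and 9.19% at 18 h, and the called shares were 0.851%, 13.2% and 5.39%. With 7 members, 2 past the threshold at 6 h and 2 at 18 h do not set them apart from those shares. The median log2 fold change of the 7 was 0.08, -0.00 and -0.02 at 1, 6 and 18 h, against 0.01, 0.03 and -0.01 for all mRNAs.

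CPSF4, which reads the poly(A) signal, was the only member called against CTRL in any of the 12 treated groups. It stood at 57.9, 52.6 and 55.9 CPM in CTRL and fell to 29.2, 39.0 and 30.8 at JTE 6h, a drop of 40.5% (log2 fold change -0.75, SE 0.10, adjusted p 1.23e-05). The highest JTE 6h library lay below the lowest CTRL library. At JTE 1h it was at 56.4, 60.5 and 57.9 CPM and at JTE 18h at 43.2, 49.6 and 42.1, so the level was lowest at the middle time. Tested between times, it fell from 1 to 6 h (log2 fold change -0.82, SE 0.10, adjusted p 8.76e-06) and rose from 6 to 18 h (log2 fold change 0.45, SE 0.10, adjusted p 0.00341). At 18 h it remained below every CTRL library without passing (-0.30, adjusted p 0.0662), while it passed by DESeq2 and, in edgeR, without JTE 18h replicate 2 (adjusted p 0.0417). Of all mRNAs, 13% passed between 1 and 6 h and 21.8% between 6 and 18 h. CPSF4 shares exon bases with other genes, ATP5MF-PTCD1 among them, and reads there were not counted for it.

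WDR33, the other reader of the signal, moved the opposite way at 6 h. It rose from 132, 124 and 123 CPM in CTRL to 153, 172 and 188 at JTE 6h (log2 fold change 0.43, SE 0.10, adjusted p 0.0028), and no library of the groups overlapped. Against JTE 1h (119.7, 141 and 142 CPM) the rise was 0.35, adjusted p 0.0195, a call that was lost without JTE 1h replicate 1 or JTE 6h replicate 3 (adjusted p up to 0.126). At JTE 18h it was at 138, 141 and 148 CPM (0.17, adjusted p 0.342 against CTRL). The step from 6 to 18 h passed with the replicate block (-0.26, adjusted p 0.0192, against -0.27, adjusted p 0.056) or without JTE 6h replicate 1 (adjusted p 0.0301).

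CPSF1, the scaffold, declined between 1 and 6 h and again to 18 h. It stood at 150.0, 142 and 139.9 CPM in CTRL, 155, 158 and 152 at JTE 1h, 116, 136 and 121 at JTE 6h and 98.5, 106 and 95.8 at JTE 18h. Every JTE 18h library lay below every library of the other groups. It fell from 1 to 6 h (log2 fold change -0.32, SE 0.08, adjusted p 0.0123), again from 6 to 18 h (log2 fold change -0.31, SE 0.09, adjusted p 0.01), and by 30.5% from CTRL to 18 h (log2 fold change -0.53, SE 0.09, adjusted p 0.000312). At 6 h it did not pass against CTRL (-0.21, adjusted p 0.0894), although without JTE 6h replicate 2 it did (adjusted p 0.0343). The fall from CTRL to 18 h passed with each of the 6 libraries left out in turn. The step from 1 to 6 h was lost without JTE 6h replicate 1 or 3 (adjusted p up to 0.0646), and that from 6 to 18 h without JTE 6h replicate 2 or JTE 18h replicate 1 or 3 (up to 0.091).

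CPSF2, the partner of CPSF73, passed against CTRL at 18 h alone among the JTE times. Its values were 145, 147 and 128 CPM in CTRL, 153, 141 and 126 at JTE 6h and 117, 107 and 115 at JTE 18h, the last group below all the others. It fell from CTRL to 18 h (log2 fold change -0.31, SE 0.08, adjusted p 0.0223) and from 6 to 18 h (log2 fold change -0.31, SE 0.09, adjusted p 0.0114). The fall from CTRL was lost when CTRL replicate 1 or 2 or any JTE 18h library was left out (adjusted p from 0.0639 to 0.112), and the step from 6 to 18 h without JTE 6h replicate 1 or JTE 18h replicate 2 or 3 (up to 0.0892). SYMPK rose from 6 to 18 h, from 91.0, 123 and 108 to 138, 128 and 131 CPM (log2 fold change 0.30, SE 0.09, adjusted p 0.0173), and lost that call without JTE 6h replicate 1 or JTE 18h replicate 1 (up to 0.121). FIP1L1 passed against CTRL at no JTE time, and its JTE 6h libraries, at 46.9, 46.9 and 46.7 CPM, lay above its CTRL libraries, at 42.6, 40.1 and 37.7 (0.22, adjusted p 0.135). Of the 7 members, 4 passed between JTE 6h and 18 h without the replicate block and 6 with it, and 30% of all mRNAs passed with it.

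**Figure D3:**
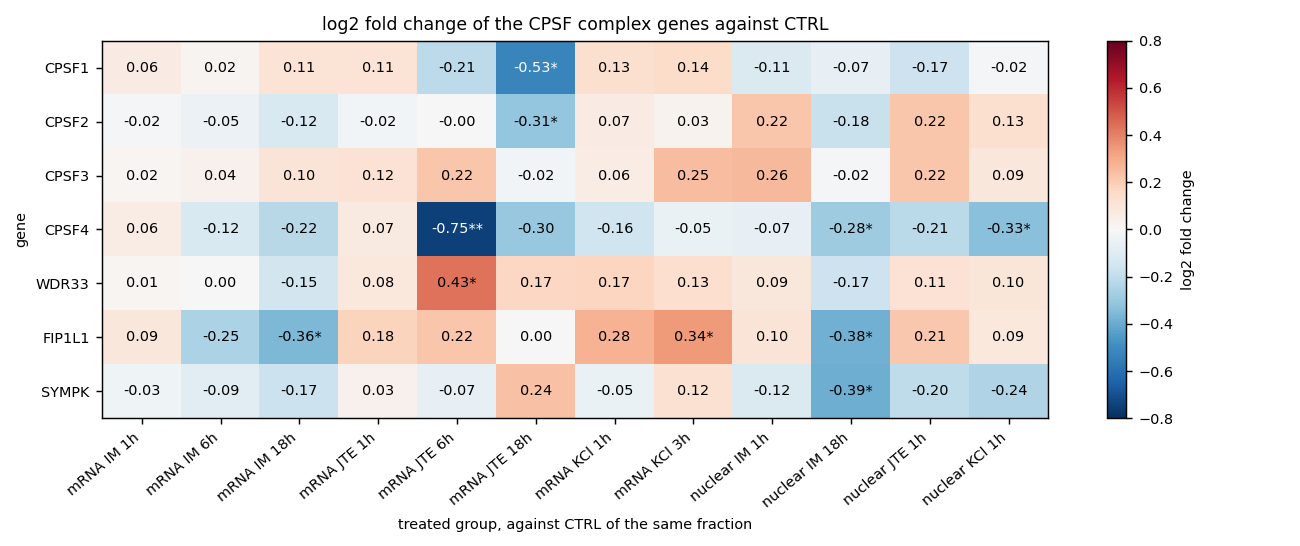
Log2 fold change of the 7 tested members (rows) against CTRL of the same fraction in the 12 treated groups (columns); colour and number give the value, 1 star marks an adjusted p under 0.05 and 2 stars a log2 fold change beyond 0.6 as well. The cell with 2 stars is CPSF4 at mRNA JTE 6h (-0.75).

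In nuclear RNA at JTE 1h none of the 7 members passed by edgeR without the block or by DESeq2, and 1, CPSF4, had an unadjusted p under 0.05, while 9.86% of 21929 nuclear RNAs passed. With the replicate block 5 of the 7 passed, beside 21.5% of all genes. Those that rose with the block were CPSF2 (0.23, adjusted p 0.0179), CPSF3, given above, and FIP1L1 (0.22, adjusted p 0.0408). Those that fell were CPSF4 (-0.21, adjusted p 0.0267) and SYMPK (-0.20, adjusted p 0.0428). None of these differences came to 0.6, and in all 7 members the JTE 1h libraries overlapped CTRL.

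**Figure D4:**
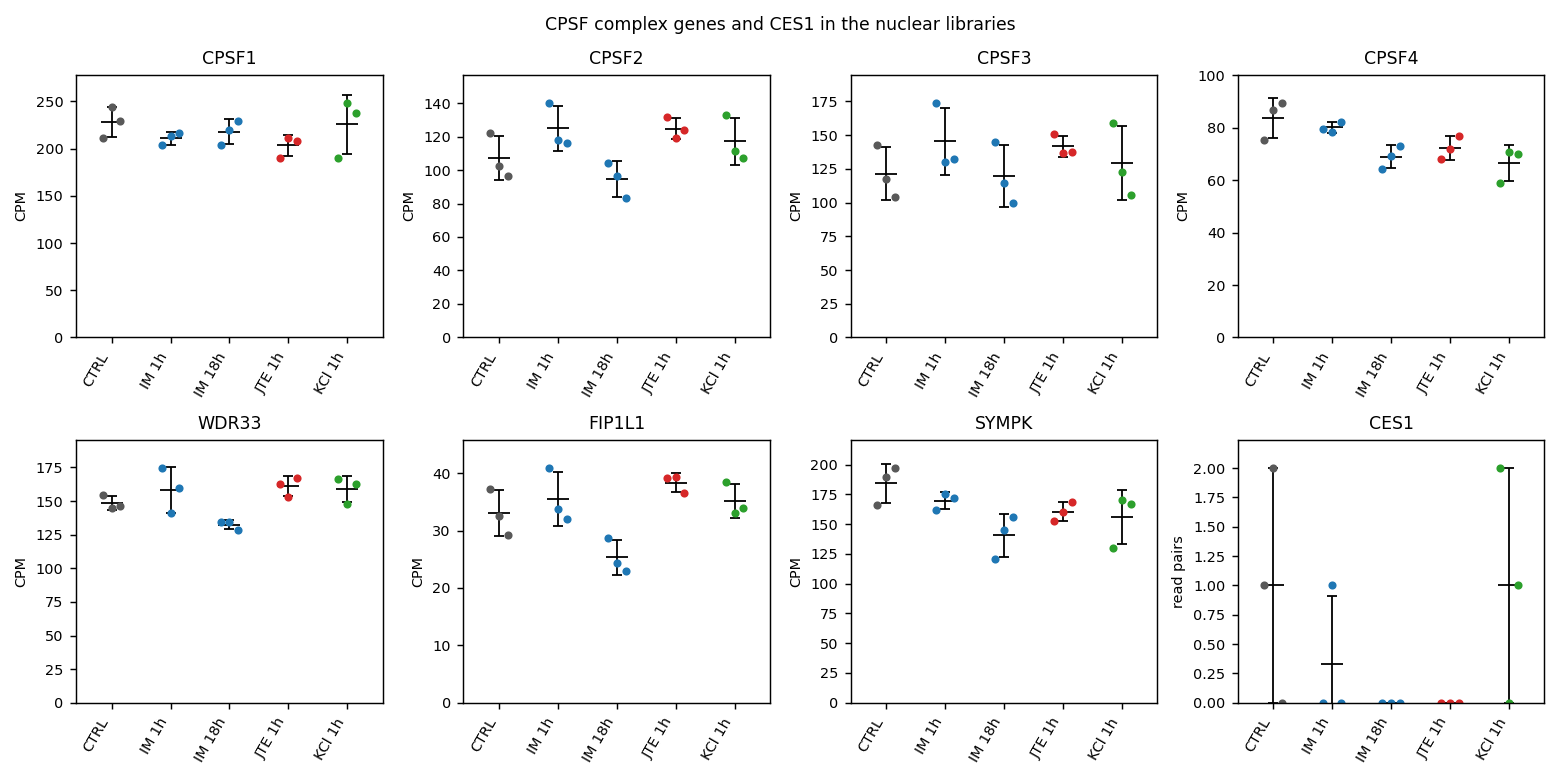
Levels in the 15 nuclear libraries by group, in CPM (in read pairs for CES1), with points for libraries and bars for the mean ± SD of 3. SYMPK and FIP1L1 are lowest at IM 18h, at 140.5 ± 18.2 CPM and 25.3 ± 3.00 CPM.

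With IM the change was in FIP1L1 and, in nuclei, also in CPSF4 and SYMPK. FIP1L1, the tether of the poly(A) polymerase, stood at 42.6, 40.1 and 37.7 CPM in mRNA CTRL, 40.9, 44.1 and 43.4 at IM 1h, 32.6, 34.2 and 34.3 at IM 6h and 29.8, 32.7 and 31.2 at IM 18h. The libraries at 6 and 18 h all lay below those of CTRL and 1 h. It fell by 22.1% from CTRL to 18 h (log2 fold change -0.36, SE 0.10, adjusted p 0.00573), a call that each left-out library kept. It also fell between 1 and 6 h (log2 fold change -0.35, SE 0.10, adjusted p 0.0232), which was lost without IM 1h replicate 2 or 3 or any IM 6h library (adjusted p up to 0.0926). It was the only member past the threshold in mRNA at IM 18h, where 43.8% of all mRNAs passed. CPSF4 missed the threshold there (-0.22, adjusted p 0.0821) and passed by DESeq2 and, in edgeR, without IM 18h replicate 2 (adjusted p 0.033). At IM 1h and 6 h no member passed by edgeR or DESeq2, 0 and 1 (FIP1L1) had an unadjusted p under 0.05, and 0.0166% and 16% of all mRNAs passed. Between IM 1h and 6 h 13% of all mRNAs passed, and between 6 and 18 h 8.34% did but none of the 7 members, by edgeR or DESeq2 or at an unadjusted p under 0.05.

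In nuclei at IM 18h, 3 of the 7 members fell, where 45.6% of all nuclear RNAs passed. SYMPK went from 166, 189.7 and 197 CPM in CTRL to 121, 145 and 156 (log2 fold change -0.39, SE 0.11, adjusted p 0.00797), FIP1L1 from 37.3, 32.6 and 29.3 to 28.7, 24.4 and 22.9 (log2 fold change -0.38, SE 0.12, adjusted p 0.0142) and CPSF4 from 75.1, 86.8 and 89.5 to 64.4, 69.1 and 73.1 (log2 fold change -0.28, SE 0.10, adjusted p 0.0268). In 4 of the 7 members, these 3 among them, no library of IM 18h reached into CTRL. The share of all nuclear RNAs without such overlap was not computed. Without a block, the call was lost for SYMPK on leaving out any of CTRL replicates 2 and 3 and IM 18h replicate 1 (adjusted p up to 0.0846), for FIP1L1 if it was CTRL replicate 1, CTRL replicate 2 or IM 18h replicate 3 (up to 0.128), and for CPSF4 if it was any of CTRL replicates 2 and 3 and IM 18h replicates 1 and 2 (up to 0.227). With the block all 3 passed and were joined by CPSF2 (-0.18, adjusted p 0.0328) and WDR33 (-0.17, adjusted p 0.0409), 5 of 7 beside 55.7% of all genes. The erythroid markers moved in the same libraries: 10 of 11 rose at IM 18h in each fraction, and their summed level ran from 12329 to 17194 CPM in mRNA against 4574 to 5968 in CTRL, and from 13235 to 16258 in nuclei against 5403 to 7218. TF, the 1 liver marker tested of 6, also rose in nuclei, from 1.19 to 26.2 CPM. The lymphocyte marker CD3D fell in mRNA, from 2.69 to 0.163 CPM, and in nuclei, from 4.33 to 0.444, and the summed level of the 6 lymphocyte markers listed ran from 1.85 to 2.75 CPM in mRNA against 5.24 to 6.41 in CTRL, and from 2.53 to 4.56 in nuclei against 6.68 to 10.1. Of the monocyte and macrophage markers 1 of 5 tested fell in nuclei, where their summed level was 4.61 to 6.83 CPM against 8.07 to 8.49. The part of all these in the fall of FIP1L1, SYMPK and CPSF4 was not tested. At IM 1h no nuclear member passed by edgeR or DESeq2, 0 had an unadjusted p under 0.05, and 0.0456% of all nuclear RNAs passed.

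With KCl, FIP1L1 passed in mRNA and CPSF4 in nuclei, and no other member did without the replicate block. At 3 h FIP1L1 rose in mRNA, to 54.6, 54.5 and 43.4 CPM (log2 fold change 0.34, SE 0.10, adjusted p 0.0195), 1 of 7 members beside 15.8% of all mRNAs. Its lowest KCl 3h library stood just above the highest CTRL library, and the call was lost without CTRL replicate 2 or 3 or KCl 3h replicate 1 or 2 (adjusted p up to 0.141). At KCl 1h no member passed in mRNA by edgeR or DESeq2, 1 (FIP1L1) had an unadjusted p under 0.05, and 6.24% of all mRNAs passed. Between 1 and 3 h no member passed by edgeR or DESeq2 or at an unadjusted p under 0.05, where 4.89% of all mRNAs passed. In nuclei at KCl 1h CPSF4 fell, from 75.1, 86.8 and 89.5 to 58.7, 70.8 and 70.1 CPM (log2 fold change -0.33, SE 0.10, adjusted p 0.0165), where 27.2% of all nuclear RNAs passed. All its KCl 1h libraries lay below CTRL, and the call was lost without CTRL replicate 2 or 3 or KCl 1h replicate 1 (adjusted p up to 0.0916). With the replicate block CPSF4 passed (-0.33, adjusted p 0.000249) and so did SYMPK (-0.25, adjusted p 0.00572), 2 of 7 beside 37.2%. Of the 6 monocyte and macrophage markers, CD14 entered the test in nuclei only through the KCl 1h libraries, and CSF1R in mRNA without a CTRL library. No count of tests passed is therefore given for these markers. CD14 stood at 0.294 CPM in mRNA CTRL and 1.72 at KCl 3h, and at 0.078 in nuclear CTRL and 0.784 at KCl 1h. CSF1R stood at 0.129 CPM in mRNA CTRL and 3.5 at KCl 1h, and at 1.94 and 13.3 in nuclei, while MARCO was at 0. In mRNA CSF1R reached the cutoff of the low-count filter in 6 libraries, no CTRL library among them. The summed level of the 6 ran from 5.92 to 11.4 CPM in mRNA CTRL, 8.39 to 15.6 at KCl 1h and 9.20 to 15.3 at KCl 3h, and from 8.07 to 8.49 in nuclear CTRL and 18.1 to 26.8 at KCl 1h. Of the lymphocyte markers 1 of 4 tested passed upward in nuclei and 0 of 2 in mRNA. Their part in the values of FIP1L1 and CPSF4 was not tested.

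JTE and IM were also compared directly at matched times, which does not rest on CTRL. At 1 h no member differed in either fraction by edgeR or DESeq2 or at an unadjusted p under 0.05, where 1.16% of all mRNAs and 8.63% of nuclear RNAs passed. At 6 h, 4 of 7 members passed beside 34.8% of all mRNAs. CPSF4 was lower with JTE (log2 fold change -0.63, SE 0.10, adjusted p 5.73e-05), FIP1L1 higher (log2 fold change 0.48, SE 0.10, adjusted p 0.000751), WDR33 higher (log2 fold change 0.43, SE 0.10, adjusted p 0.00159) and CPSF1 lower (log2 fold change -0.23, SE 0.08, adjusted p 0.0364). The groups did not overlap in CPSF4, FIP1L1 and WDR33 but did in CPSF1, whose call was lost without IM 6h replicate 1 or 2 or JTE 6h replicate 1 or 3 (adjusted p up to 0.215). CPSF3 passed there without JTE 6h replicate 3 (adjusted p 0.032, against 0.131 with it). At 18 h, 4 of 7 members again passed, beside 44.2% of all mRNAs. CPSF1 was lower with JTE (log2 fold change -0.63, SE 0.09, adjusted p 3.22e-06), and SYMPK (0.41, adjusted p 0.000692), FIP1L1 (0.36, adjusted p 0.00566) and WDR33 (0.32, adjusted p 0.0133) were higher. The WDR33 call was lost without IM 18h replicate 1 (adjusted p 0.0787).

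The nuclear and the mRNA response did not differ in any member by the interaction test in edgeR for IM 1h, IM 18h, JTE 1h or KCl 1h, nor by DESeq2. At an unadjusted p under 0.05 there was 1, CPSF1 at JTE 1h. Of all genes tested 0%, 0.0901%, 0.0605% and 0.668% passed. For CPSF3 the interval of the difference between fractions ran from -0.14 to 0.63 at IM 1h, -0.48 to 0.35 at IM 18h, -0.23 to 0.49 at JTE 1h and -0.55 to 0.41 at KCl 1h, on the log2 scale.

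The members did not vary as 1 unit across libraries. Over the 27 mRNA libraries the Pearson r of log2(CPM + 0.5) between members ran from -0.49 (CPSF4 with WDR33) to 0.60 (CPSF1 with CPSF2), and over the 15 nuclear libraries from -0.79 (CPSF1 with CPSF3) to 0.92 (CPSF2 with FIP1L1). In nuclei CPSF2, CPSF3, WDR33 and FIP1L1 correlated with each other at 0.60 or more, and CPSF4 correlated with SYMPK at 0.88. The genes most like CPSF3 with a mean of at least 10 CPM were SF3B1 (0.88), IARS2 (0.87) and SOD1 (0.87) among 8719 in mRNA, and GTF3C3 (0.99), U2SURP (0.98) and ZNF24 (0.98) among 9194 in nuclei. These are descriptions over libraries that share treatments and replicate numbers.

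CES1 was close to absent. Its 12 read pairs in mRNA were spread over 7 of 27 libraries, with 5 in KCl 1h replicate 3, 1 of the 2 deepest libraries, and 20 libraries held 0. The nuclear libraries held 7 read pairs in all, and 10 of 15 held 0. Pooled, that is 0.0205 CPM in mRNA (exact 95% Poisson interval 0.0106 to 0.0358, counting error only) and 0.0219 CPM in nuclei (0.00881 to 0.0451). In the JTE libraries CES1 was at 0, 1 and 0 read pairs at 1 h, 0, 0 and 1 at 6 h and 0, 0 and 0 at 18 h in mRNA, and at 0, 0 and 0 in nuclei. A count of 0 in 1 library allows up to 3 read pairs, which is 0.0502 to 0.186 CPM in mRNA and 0.121 to 0.176 in nuclei. The gene did not enter any test, since it was below the filter on low counts in both fractions. Unique mapping bears on this count: of 1458 windows of 100 bases within CES1 exons (chromosome 16, 55802851 to 55833337), 612 occur again on chromosome 16, and 514 of those occur in the neighbouring pseudogene CES1P1. CES1P1 itself held 24 read pairs in mRNA and 27 in nuclei. Of the defining liver genes, ALB, APOA1, SERPINA1, TTR and FGB did not exceed 0.776 CPM in any library. TF ran up to 35.8 CPM. Of the 6 monocyte and macrophage markers only MARCO was at 0 in all libraries. LYZ, the most abundant of them in CTRL, had a mean of 8.89 CPM in mRNA CTRL and 5.71 CPM in nuclear CTRL. CD14 and CSF1R are given above.

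Of the other carboxylesterases CES2 was the abundant one, at 37.4 CPM pooled over mRNA and 46.9 over nuclei, and CES3 held 880 and 990 read pairs in all. CES2 fell at JTE 6h, to 23.9 ± 4.01 CPM from 39.4 ± 4.31 in CTRL (log2 fold change -0.72, SE 0.14, adjusted p 0.000481). CES3 rose at IM 18h in mRNA (1.75, adjusted p 0.00611) and in nuclei (1.60, adjusted p 2.71e-05). CES4A and CES5A held 13 and 52 read pairs in all mRNA libraries together. Only CES2 and CES3 of the 6 other family members were tested.

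Some factors that work beside CPSF changed by larger folds under JTE than any subunit did, without a test of that difference. Of 16 further 3′ processing factors, 5 rose and 2 fell at JTE 6h in mRNA, beside the 18.1% of all mRNAs that passed there. Of those that rose 3 were called, beside 13.2% of all mRNAs. PCF11, which couples cleavage to termination, rose at 1 h (0.90, adjusted p 7.23e-05) and at 6 h went from 103 ± 12.8 to 276 ± 21.2 CPM (log2 fold change 1.42, SE 0.12, adjusted p 7.23e-09). At 18 h it was still higher (0.66, adjusted p 0.000517), and in nuclei it rose at JTE 1h (0.88, adjusted p 3.94e-05), the 1 factor of 16 to pass there. CSTF3, a subunit of the cleavage stimulation factor, rose at 6 h (1.35, adjusted p 2.99e-09) and 18 h (0.66, adjusted p 0.000167). RBBP6, an activator of the cleavage complex, did so at 6 h (1.27, adjusted p 1.51e-07) and 18 h (0.65, adjusted p 0.00181), and also at KCl 3h (1.01, adjusted p 3.55e-06). The median over the 16 at JTE 6h was 0.18 against 0.03 for all mRNAs. All these comparisons share the CTRL libraries.

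With IM at 18 h, 1 of the 16 factors rose and 4 fell in mRNA, and 0 rose and 3 fell in nuclei, where 43.8% and 45.6% of all genes passed. CLP1, a subunit of cleavage factor II, fell in mRNA from 23.2 ± 2.30 to 11.3 ± 1.52 CPM (log2 fold change -1.03, SE 0.13, adjusted p 1.68e-06) and in nuclei (-1.07, adjusted p 2.29e-06). CSTF2 fell in mRNA (-0.75, adjusted p 4.02e-06) and nuclei (-0.82, adjusted p 1.51e-06), as did the phosphatase SSU72 (-0.68, adjusted p 1.81e-05, and -0.69, adjusted p 1.83e-05). Among 7 nucleases of the metallo-beta-lactamase fold that CPSF3 belongs to, 1 rose and 4 fell in nuclei at IM 18h. INTS9 of the Integrator complex fell there (-1.20, adjusted p 7.98e-08) and in mRNA at 6 h (-0.83, adjusted p 0.000922), and the tRNA 3′ nuclease ELAC2 fell (-0.69, adjusted p 1.61e-05). At JTE 6h 1 of the 7 rose and 1 fell, and at 1 h in either fraction none passed. CPSF73 also cuts histone transcripts, with the U7 particle: of 5 partners there, 2 rose and 3 fell in mRNA at IM 18h, LSM11 upward (0.97, adjusted p 3.79e-05) and LSM10 (-1.12, adjusted p 3.53e-07) and ZNF473 (-0.89, adjusted p 0.000379) downward.

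Members are also genes with ends of their own, and the next gene downstream was examined for each. IAH1, which encodes an esterase-like hydrolase, starts 557 bases after CPSF3 on the same strand in the annotation of the files. Its read pairs in mRNA were 9, 9 and 8 in CTRL, 20, 18 and 41 at JTE 1h, 36, 30 and 39 at JTE 6h and 19, 4 and 7 at JTE 18h. JTE 6h stood above CTRL throughout and JTE 18h reached into it. IAH1 rose at JTE 6h (log2 fold change 2.02, SE 0.41, adjusted p 0.000975) and fell again from 6 to 18 h (log2 fold change -1.85, SE 0.41, adjusted p 0.00217). In mRNA it reached the cutoff of the low-count filter in 17 libraries, no CTRL library among them, which limits its mRNA comparisons with CTRL. At JTE 1h all libraries were above CTRL and the test was not passed (1.55, adjusted p 0.0934). With KCl it held 20, 103 and 70 read pairs at 1 h, where replicates 2 and 3 are the deep libraries, and 46, 51 and 36 at 3 h. It rose at both times (1.65, adjusted p 0.0116, and 2.18, adjusted p 0.000449), and the KCl 1h call was lost without CTRL replicate 3 (adjusted p 0.0503) or KCl 1h replicate 2 (0.0556).

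In nuclei IAH1 was at 42, 43 and 60 read pairs in CTRL, 161, 139 and 223 at JTE 1h and 110, 153 and 252 at KCl 1h. Both treated groups lay above CTRL, and both differences passed (log2 fold change 1.72, SE 0.29, adjusted p 0.000725 for JTE, and log2 fold change 1.90, SE 0.29, adjusted p 5.47e-05 for KCl). With IM it held 25, 56 and 35 at 1 h and 31, 40 and 45 at 18 h, which overlap CTRL, and in mRNA the IM libraries held 5 to 15. As a share of the CPSF3 count, IAH1 made up 0.311% ± 0.0203 in mRNA CTRL (SD, n = 3) and 1.10% ± 0.122 at JTE 6h, and 1.95% ± 0.805 in nuclear CTRL and 5.29% ± 1.11 at JTE 1h. Without the replicate block CPSF3 itself passed against CTRL in none of these groups. Whether the IAH1 reads begin at its own start or at CPSF3 was not tested, since gene counts do not show it.

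**Figure D5:**
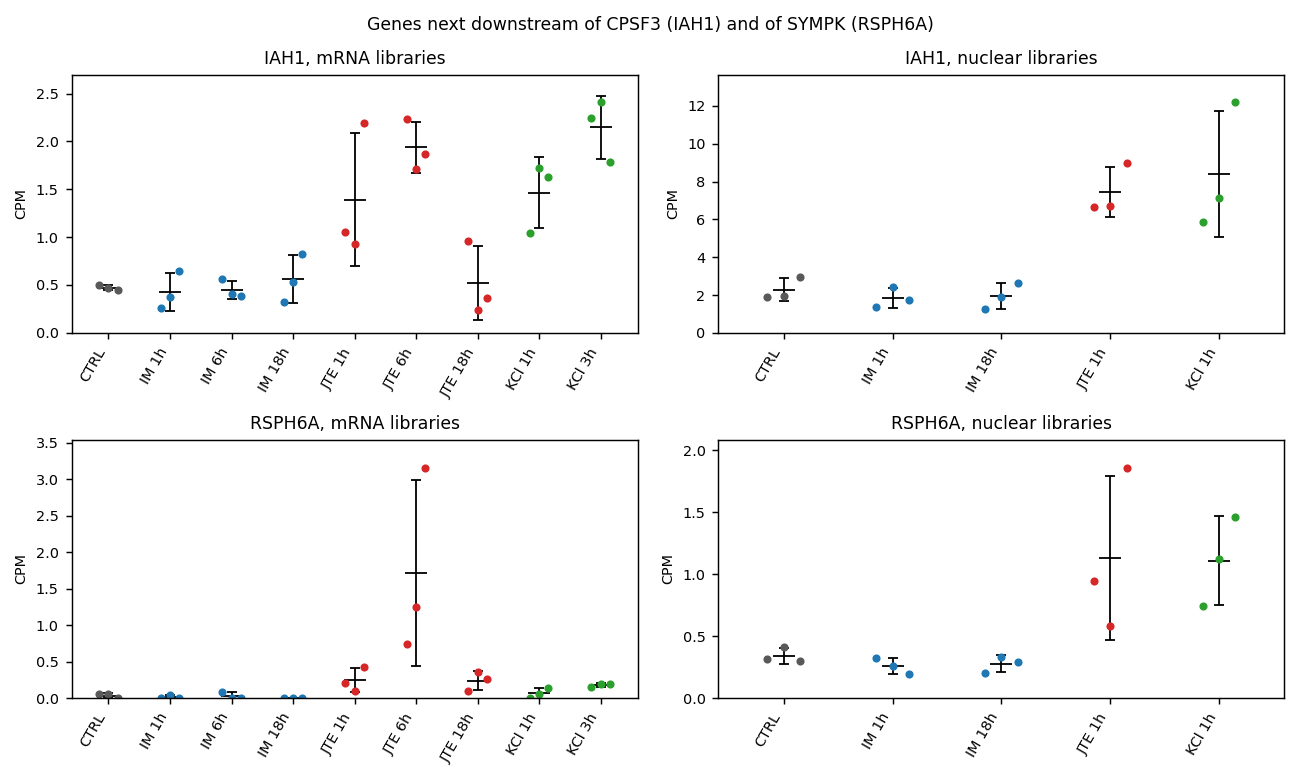
CPM of IAH1 (top) and RSPH6A (bottom), the genes next downstream of CPSF3 and SYMPK, in the mRNA (left) and nuclear libraries (right); points are libraries and bars the mean ± SD of 3. Nuclear IAH1 at JTE 1h and KCl 1h stands above all CTRL and IM libraries.

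RSPH6A, a radial spoke gene of cilia and sperm tails, follows SYMPK after only 90 bases (chr19:45815320-45815409, minus strand, hg38), shown here in the direction of both genes because it is the whole distance between them. The SYMPK hexamer printed above ends 54 bases before the annotated end of SYMPK, where this stretch begins.
SYMPK to RSPH6A: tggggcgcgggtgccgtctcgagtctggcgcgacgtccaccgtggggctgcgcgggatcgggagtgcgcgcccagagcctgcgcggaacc
In mRNA RSPH6A held 1, 1 and 0 read pairs in CTRL, 4, 2 and 8 at JTE 1h, 12, 22 and 66 at JTE 6h and 2, 6 and 5 at JTE 18h, and 0 in each IM 18h library. Each JTE 6h library stood above all libraries of the other groups named. Its 100 read pairs there against 2 in CTRL are a ratio of 50.5 per normalized library. Replicate 3 held 66 of the 100, and without it the ratio was 27.8. Both ratios rest on only 2 read pairs in CTRL. Since the gene passed the filter on low counts in mRNA only through JTE 6h, no test is given there. In nuclei it held 7, 9 and 6 read pairs in CTRL, 23, 12 and 46 at JTE 1h and 14, 24 and 30 at KCl 1h, with no overlap. It passed the filter there through the JTE 1h and KCl 1h libraries, with no CTRL library at the cutoff, so no test is given for nuclei either. The log2 fold change from CTRL was 1.73 with JTE and 1.69 with KCl, and with JTE it was 1.17 without JTE 1h replicate 3. SYMPK itself overlapped CTRL at JTE 6h (91.0, 123 and 108 CPM).

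Farther neighbours were less uniform. LIMS2, 19236 bases beyond WDR33, held 0 read pairs in every nuclear CTRL library and 29, 50 and 67 at KCl 1h, at least 17.0-fold higher against a floor of 3 read pairs per CTRL library, while nuclear JTE 1h held 1, 0 and 1. LNX1-AS1, 35539 bases beyond FIP1L1, held 7, 2 and 5 read pairs in nuclear CTRL and 25, 17 and 26 at KCl 1h. Both genes passed the filter in nuclei only through KCl 1h, so no test is given. RNU6-366P, the next gene after CPSF2, and MMP2-AS1, the next after CES1, held 0 read pairs in all 42 libraries. ZNF789, 15470 bases beyond CPSF4, fell with KCl in mRNA (-1.18, adjusted p 0.000306 at 1 h, and -0.95, adjusted p 0.00117 at 3 h) and in nuclei (-1.19, adjusted p 4.43e-08), and with JTE in nuclei (-0.38, adjusted p 0.0209). FBXL6, 33853 bases beyond CPSF1, fell in nuclei with JTE (-0.43, adjusted p 0.0393) and KCl (-0.56, adjusted p 0.00241).

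Overlaps limit some of these counts. WDR33 contains the whole of SFT2D3, whose 3735 exon bases all lie in WDR33 exons, and SFT2D3 was listed at 0 in all 42 libraries. FIP1L1 shares 1560 exon bases at its 3′ end with LNX1, which runs the other way, and the counts do not use strand, so reads past the end of FIP1L1 and reads of LNX1 cannot be told apart. LNX1 rose at mRNA JTE 6h (log2 fold change 1.24, SE 0.19, adjusted p 4.13e-05) and in nuclei at KCl 1h (0.96, adjusted p 0.00256).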

How the data were processed

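RNA of K562 cells was sequenced as poly(A) mRNA (27 libraries) and as nuclear RNA depleted of ribosomal RNA (15 libraries). The authors trimmed and deduplicated reads, aligned them to hg38 with STAR, kept unique alignments and deposited raw counts of read pairs per gene from featureCounts. The labels name GRCh38.p14, and the annotation release is not given in the sources used here. Pairs overlapping several genes were not counted, and counting did not use strand although the libraries keep it, so overlapping and antisense genes cannot be told apart. The coordinates of the count tables matched hg38.

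Counts were filtered by filterByExpr (18095 mRNA and 21929 nuclear genes) and tested by edgeR 4.0.16 (R 4.3.3) with TMM factors and robust quasi-likelihood fits, fitting each fraction as a whole, and p-values were adjusted after Benjamini and Hochberg over all genes tested. The steps were tested on simulated data. A gene passed at an adjusted p under 0.05 and was called if its log2 fold change also lay beyond 0.6. CPM values use TMM library sizes. Depth ran from 16175394 to 62953314 read pairs, and a count of 0 allows 3 read pairs. Poisson intervals cover counting error only, and those of fold changes come from the edgeR fit. Per the study's methods each treatment was repeated as its own experiment, and p-values measure the spread between these experiments. Replicates 1 and 3 of mRNA JTE 18h were the most alike of all replicate pairs. The chi-square per gene between their counts was 2.37, where other pairs reached 62.5. Whether these 2 libraries are independent experiments was not tested, and results at JTE 18h carry that limit.

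The pairing of replicate numbers was checked by correlating deviations from group means over genes of at least 10 CPM. Every same-numbered pair exceeded 0.1 in the 5 nuclear comparisons (r from 0.235 to 0.891) and in 6 of mRNA (0.112 to 0.845). Alternatives were DESeq2 1.42.0, no low-count filter, other scaling, fits of the compared groups alone, a replicate block and leaving out each library.

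Genes named are the 8 members, the genes overlapping or next to them, up to 4 genes of each list with the largest called changes, their values in the other fraction or time, the 3 genes most like CPSF3, and marker genes and other listed genes given to check cell type or level. The members and lists were chosen with earlier results of these data known. Some 3′ end sequences are not reported here.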

Additional observations from a re-analysis of the deposited data

Results flagged for a closer look

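The effect of an agent differed between times, by the edgeR test of the difference itself, in 6 members and 1 downstream gene. Values are log2 differences between the times, which equal the differences between their effects against the shared CTRL. Between IM 1h and 6h FIP1L1 differed by -0.3458. Between JTE 1h and 6h WDR33 differed by 0.3513, CPSF4 by -0.8193 and CPSF1 by -0.3195. Between JTE 6h and 18h CPSF4 differed by 0.4451, SYMPK by 0.3024, CPSF1 by -0.3143, CPSF2 by -0.3078 and IAH1 by -1.8485.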

How the results depend on the processing

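No member value changed direction while past the threshold. Of the members' values under other settings, 808 kept their side of the threshold, 19 came past it and 20 lost it, and with 1 library left out these numbers were 1167, 7 and 44. Without the fold threshold the members counted were 1 at mRNA IM 18h, 2 at JTE 6h, 2 at JTE 18h, 1 at KCl 3h, 3 at nuclear IM 18h and 1 at nuclear KCl 1h, 1 between IM 1h and 6h, 3 between JTE 1h and 6h, 4 between JTE 6h and 18h, and 4 for JTE against IM at 6 h and 4 at 18 h. With that threshold the count for JTE against IM at 18 h was 1, and 0 with no low-count filter or with those groups fitted alone. Leaving out 1 library gave 0 to 1 for JTE against IM at 6 h and 0 to 1 at 18 h. With the replicate block, 2 members passed in place of 1 at mRNA IM 18h, 4 in place of 2 at JTE 6h and 3 in place of 2 at JTE 18h. At KCl 3h it was 2 in place of 1, at IM 6h 1 in place of 0, and for JTE against IM at 18 h 5 in place of 4. CPSF3 was among those added at JTE 6h (adjusted p 0.0338) and KCl 3h (0.0183). In these comparisons only some same-numbered pairs went together, with r from -0.295 to 0.761 at JTE 6h and -0.281 to 0.554 at KCl 3h. Replicates 1 and 2 of mRNA CTRL hold 18333127 and 19031221 read pairs by the labels, and the reverse in the study's mapping statistics. Whether their numbers were exchanged was not tested. Beyond these members and the values given with the results, the block added no member. Over all mRNAs, genes called at JTE 1h numbered 154, 237 with no low-count filter, 258 with the block and 5 with the compared groups alone, and at JTE 18h they numbered 975, and 577 without JTE 18h replicate 3. The causes were not tested. Depth limits CES1 and RSPH6A, whose counts are near 0 in many libraries.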
